A study of Cunninghamia lanceolata with 2 samples.

Results

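The 10 genes described here are the most abundant genes of Chinese fir root whose Gene Ontology (GO) terms name phosphate starvation, once genes with certain product names are set aside. They were taken from a table of 32731 assembled genes, of which 20 carry a phosphate starvation term. Genes whose product name marks them as phosphate transporters of the PHS family, acid phosphatases, ribonuclease T2, sulfolipid enzymes, phospholipases, phosphoenolpyruvate carboxylases or ubiquitin-conjugating enzymes were left out, which removed 4 and left 16. The filter reads the product name alone, so genes with a phosphate transport or phosphatase GO term but no product name remain. The 10 with the highest mean level over the 2 libraries were kept, in reads per kilobase of gene, scaled to library depth (RPKM). Their mean levels run from 567 RPKM for comp8706_c0 to 17.1 RPKM for comp26304_c0, and the next gene below the limit, comp15188_c0, had 15.4 RPKM. Because the genes were chosen by their mean RPKM over both libraries, their levels and ratios are descriptions and no test was run on them.

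Seedlings of Chinese fir (Cunninghamia lanceolata), a conifer, were grown for 1 month in diluted Hoagland solution and then kept for 4 months at low phosphorus (LP, distilled water with less than 0.01 mM phosphorus) or at sufficient phosphorus (CK, 1 mM). If the distilled water also lacked other nutrients, their shortage and that of phosphorus cannot be told apart here. RNA-seq of roots gave 1 library per group, with 48502899 estimated reads in LP and 17848911 in CK. The labels do not give the seedlings' genotype or age, nor how many plants a library holds. No difference below has a replicate check, "higher" and "lower" describe these 2 libraries, and the 95% intervals cover counting error only. In RNA of whole roots, fewer cells of a type and less RNA per cell cannot be told apart. All genes on the root marker list had reads in LP (93 of 93) and nearly all in CK (91 of 93), and their summed level was 5039 RPKM in LP roots and 4385 RPKM in CK roots. Green shoot markers summed to 722.9 RPKM in LP roots and 1109 RPKM in CK roots, with 2 of 77 at 0 reads in CK. Wood and xylem markers summed to 2887 RPKM in LP roots and 2405 RPKM in CK roots, all 90 with reads in both. Of 13 fungal markers, 13 had reads in LP and 6 in CK, with sums of 169.2 RPKM in LP roots and 181 RPKM in CK roots. The LP library held 2.72 times the reads of the CK library, so genes with few reads can be missed in CK. The part of other tissue or of a fungus in the values below was not tested.

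Plants short of phosphate draw on internal stores, release phosphate from organic compounds and place more phosphate carriers in the root surface. In Arabidopsis and rice, nuclear SPX domain proteins bind the PHR transcription factors when phosphate is plentiful and so hold the response back, and genes of SPX proteins are themselves switched on by phosphate shortage. Other parts known in Arabidopsis are PHO1, which exports phosphate to the xylem, PHF1, which lets phosphate carriers leave the endoplasmic reticulum (ER), and PDR2, an ER ATPase that acts in the root meristem. Auxin and cytokinin receptors belong to the response because these hormones shape the root and adjust how strongly starvation genes respond. The table gives a product name for 4 of the 10 genes and none for the other 6, so the roles below are those of the GO terms, and no gene was matched to a named Arabidopsis gene.

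The 10 genes did not move as a group. At LP, 3 of them were at least 2-fold higher than at CK, 1 was at least 2-fold lower and 6 stayed within 2-fold, on the scale of log2((LP + 1)/(CK + 1)) in RPKM. The 3 include comp25733_c0, at 0.76 RPKM in CK, which is in the set only through its LP level. The same holds for comp26304_c0, at 12.6 RPKM in CK and among the 6 within 2-fold. Over all 30843 genes that averaged 1 RPKM or more, 8.68% were at least 2-fold higher and 16.2% at least 2-fold lower. Over the 8142 genes at least as abundant as comp26304_c0, 8.34% were higher and 6.2% lower. The median log2 ratio of the 10 genes was -0.15, beside -0.16 for the 30843 genes and 0.04 for the 8142 genes of like abundance. The summed level of the 10 genes was 1833 RPKM in LP roots and 434.7 RPKM in CK roots, a ratio of 4.22, and most of the LP sum lay in 1 gene. Without comp8706_c0, the most abundant in LP, the ratio was 1.73.

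**Figure D1:**
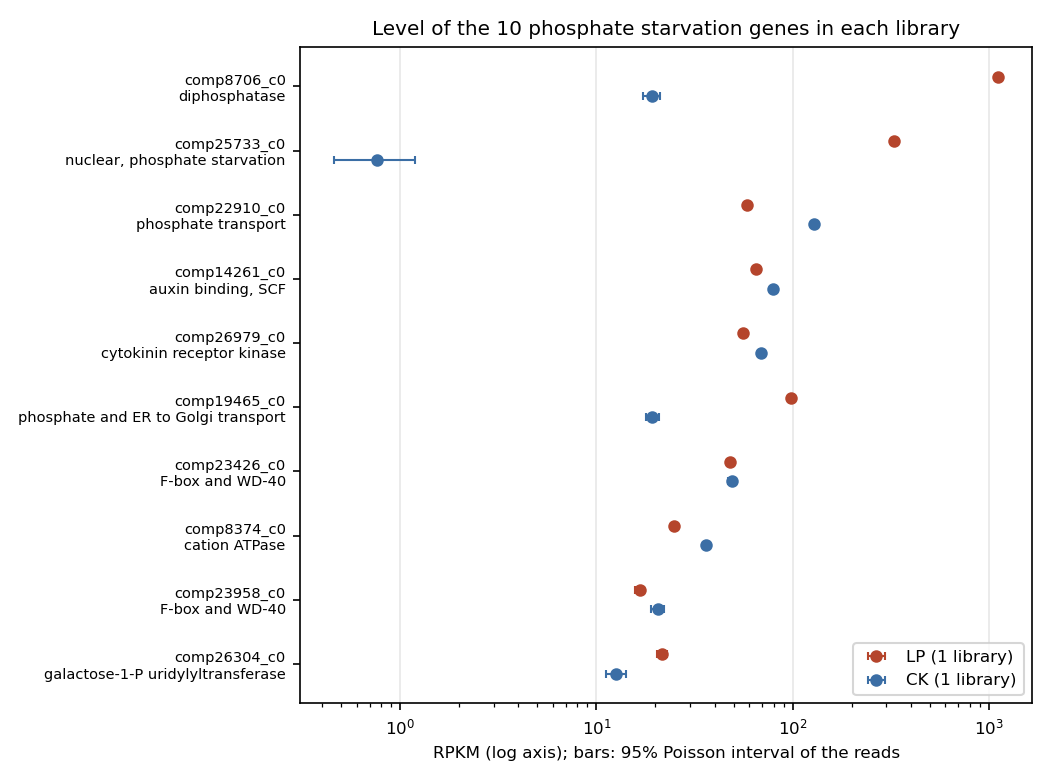
Level of each of the 10 genes in RPKM on a log axis, in the LP library (red) and the CK library (blue), with 95% Poisson intervals of the reads, which cover counting error only. The red points of comp8706_c0, comp25733_c0 and comp19465_c0 lie far to the right of the blue ones, comp22910_c0 lies the other way, and the pairs of the 6 remaining genes lie close together.

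The gene comp8706_c0 was the most abundant of the set in LP. Its GO terms name inorganic diphosphatase and phosphatase activity, metal binding and the cellular response to phosphate starvation; an inorganic diphosphatase splits pyrophosphate into phosphate. Its level was 1115 RPKM in LP roots and 19.2 RPKM in CK roots, on 63884 and 402 reads. That is 58.2-fold higher in LP (95% interval 52.8 to 64.4). It was the 41st most abundant of all genes in LP and the 7420th in CK. Its log2 ratio of 5.79 was the 67th highest of the 30843.

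The gene comp25733_c0 had the largest ratio of the set. It carries 2 GO terms, nucleus and the cellular response to phosphate starvation, and a class of inorganic ion transport and metabolism. Its level was 330 RPKM in LP roots and 0.76 RPKM in CK roots. The CK value rests on 19 reads, which sets the width of the interval around its 428-fold difference (274 to 710, from reads per library total). Its log2 ratio of 7.55 was the 17th highest of all. In CK it was the least abundant of the 10, the 30367th of 32731 genes, and in LP it was the 308th. The table joins 19 assembled transcripts under this gene, so the value is a sum over them.

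The 2 genes with a phosphate transport term lay on opposite sides. The gene comp19465_c0, placed by its terms in the ER membrane and the plasma membrane and in ER to Golgi transport of proteins, had 98.5 RPKM in LP roots and 19.3 RPKM in CK roots. It was 5.1-fold higher in LP (4.69 to 5.54), on 8444 LP and 607 CK reads. The gene comp22910_c0, an integral plasma membrane protein by its terms, had 58.6 RPKM in LP roots and 129 RPKM in CK roots. It was 2.2-fold lower in LP (2.13 to 2.26), on 9568 LP and 7701 CK reads, and was the most abundant of the 10 in CK. Its place past 2-fold depends on how the libraries are scaled: with the median ratio of all genes set to 1, it was 1.9-fold lower and no member was 2-fold lower. Both genes carry a class of intracellular trafficking, secretion and vesicular transport.

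**Figure D2:**
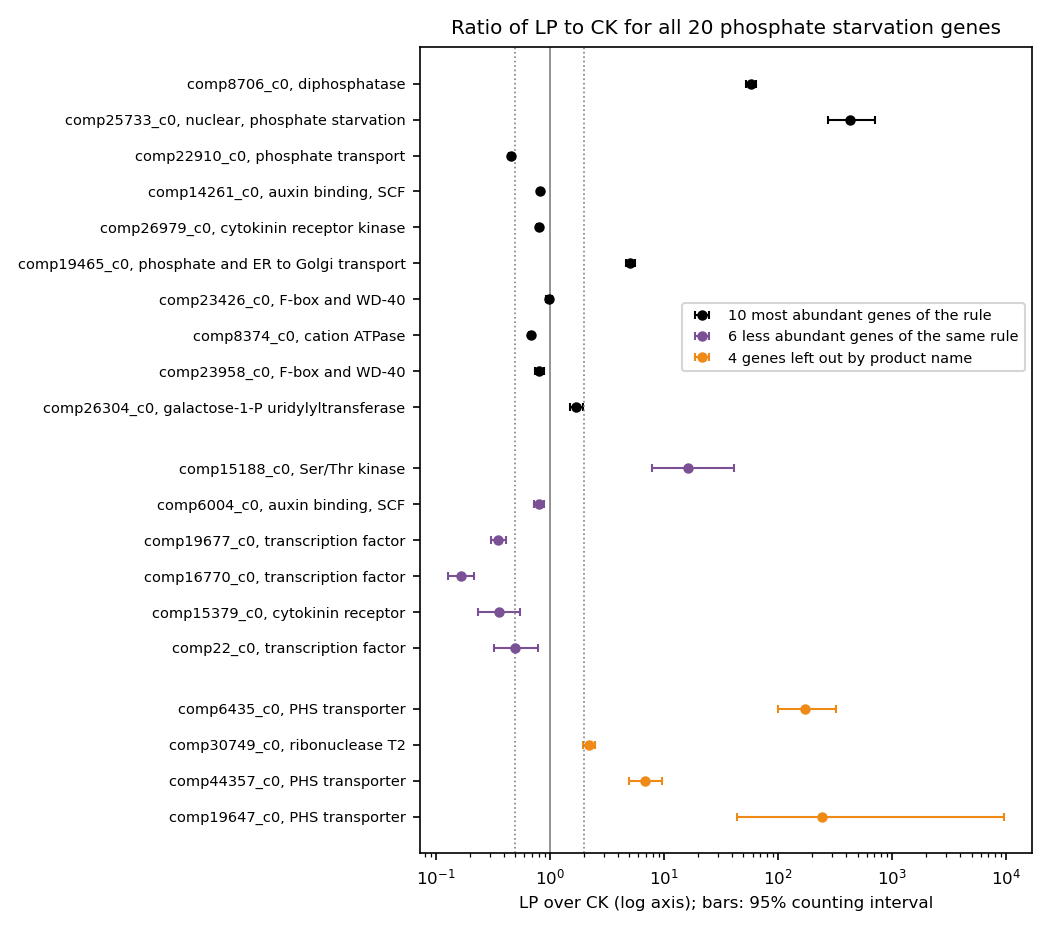
Ratio of LP to CK on a log axis for all 20 genes with a phosphate starvation term, with 95% counting intervals; dotted lines mark 2-fold. The 10 most abundant genes of the rule (black) spread from 0.455 to 428, and the 4 genes left out by product name (orange) all lie above 2.

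The gene comp8374_c0, with terms for a cation-transporting ATPase of the ER, metal ion homeostasis and meristem maintenance, differed less. Its level was 24.8 RPKM in LP roots and 36.2 RPKM in CK roots, 1.46-fold lower (1.4 to 1.53). Relative to the median of all genes its log2 ratio was -0.37. The gene comp26304_c0 is annotated as galactose-1-phosphate uridylyltransferase, an enzyme of galactose use, and is the only one of the 10 whose term is positive regulation of the response to phosphate starvation. It had 21.6 RPKM in LP roots and 12.6 RPKM in CK roots, 1.71-fold higher (1.5 to 1.95). Of the 6 genes within 2-fold it was the one that lay on the LP side with the deposited scaling; with the median ratio of all genes set to 1, comp23426_c0 lay there too, at a log2 ratio of 0.17.

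The 2 genes with hormone receptor terms differed by less than 1.5-fold. The gene comp14261_c0 has terms for auxin binding, an SCF ubiquitin ligase complex and inositol hexakisphosphate binding, which are those of the auxin receptor family, while its product name is EREBP-like factor, a transcription factor; the table does not settle which is right. Its level was 65.4 RPKM in LP roots and 79.3 RPKM in CK roots, 1.21-fold lower (1.17 to 1.25). The gene comp26979_c0 has terms for a membrane histidine kinase that acts as cytokinin receptor, and had 55.8 RPKM in LP roots and 69.3 RPKM in CK roots, 1.24-fold lower (1.2 to 1.28). Their log2 ratios were -0.27 and -0.31, below the median of -0.16 for all genes and that of 0.04 for the genes of like abundance.

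The 2 genes with the product name F-box and WD-40 domain protein 7, the substrate-binding part of a ubiquitin ligase, share a hit in the protein database and may be copies or pieces that share reads. The gene comp23426_c0 had 47.8 RPKM in LP roots and 49 RPKM in CK roots, and its ratio was 0.977 (0.922 to 1.04), the closest to 1 of the 10. The gene comp23958_c0 had 16.6 RPKM in LP roots and 20.5 RPKM in CK roots, 1.23-fold lower (1.12 to 1.36). For comp23426_c0 the reads per library total give another value, 0.867 (0.819 to 0.92). For comp26979_c0 the read ratio was 0.769 (0.744 to 0.795), against an RPKM ratio of 0.805 (0.779 to 0.833). The 2 ratios can differ where a gene has several transcripts. The difference was up to 0.17 on the log2 scale in the 6 members with more than 1 transcript, but 0.02 in comp25733_c0 with 19 transcripts. In the 4 members with 1 transcript it was at most 0.007. Whether transcripts of different length are used in the 2 libraries was not tested.

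**Figure D3:**
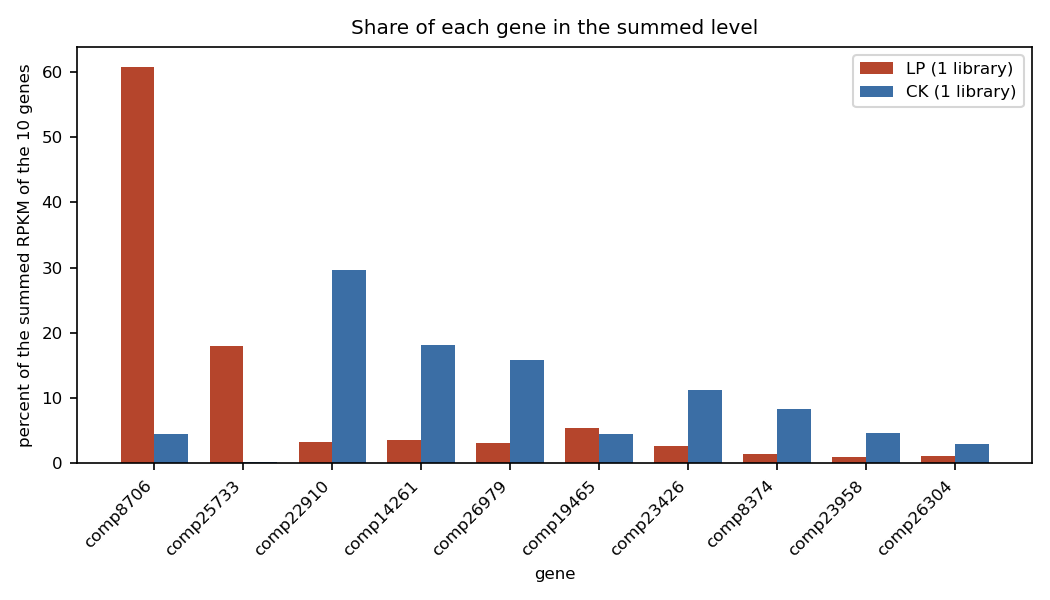
Share of each of the 10 genes in their summed RPKM, in percent, in the LP library (red bars) and the CK library (blue bars). In LP comp8706_c0 holds 60.8% and comp25733_c0 18%; in CK comp22910_c0 holds 29.6%, and the 3 genes that are at least 2-fold higher in LP hold 9.03% together.

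The order of the genes by level per length differed between the libraries. In LP the 3 genes at least 2-fold higher took the first 3 places, with 84.2% of the summed level, against 9.03% in CK. Their larger share in LP follows from the grouping, since these genes were taken by their own ratio. In CK the first places went to comp22910_c0, comp14261_c0 and comp26979_c0, with 29.6%, 18.2% and 15.9% of the sum. The 3 genes higher in LP stood 7th, 8th and 10th in CK. In LP no neighbours in the order had overlapping intervals. In CK the intervals of comp23958_c0 (18.9 to 22.1 RPKM), comp19465_c0 (17.8 to 20.9 RPKM) and comp8706_c0 (17.3 to 21.1 RPKM) overlapped, so these 3 cannot be ordered. The 7 genes that were not 2-fold higher, also grouped by their own ratio, summed to 290.5 RPKM in LP roots and 395.5 RPKM in CK roots. That is a ratio of 0.735, and the grouping keeps it below that of all 10 genes.

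**Figure D4:**
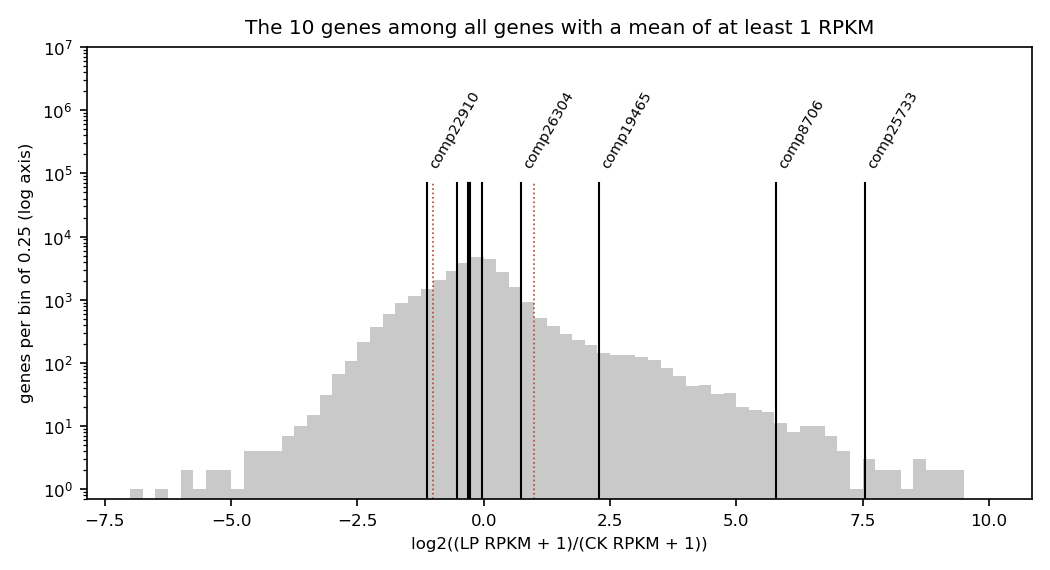
Distribution of log2((LP RPKM + 1)/(CK RPKM + 1)) over the 30843 genes that averaged 1 RPKM or more (grey, genes per bin on a log axis), with a black line at each of the 10 genes and dotted lines at 2-fold. Of the 10, 6 fall between the dotted lines, and comp8706_c0 and comp25733_c0 in the upper end of the distribution.

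The 3 genes higher in LP are 1184 to 1735 bases long and the other 7 are 1441 to 4552 bases long, all above the median of 610 bases for the whole table. The authors' deposited table calls 4 of the 10 genes different between the libraries, comp8706_c0, comp25733_c0, comp19465_c0 and comp22910_c0, and calls 10.4% of all genes. In the authors' deposited table the other 6 have p-values of 0.08 to 0.64, and that test compares 2 libraries, not the phosphorus levels.

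The 6 less abundant genes that meet the same text rule had 1 member at least 2-fold higher and 3 at least 2-fold lower, with a median log2 ratio of -0.93. The gene comp15188_c0, a serine/threonine kinase by its terms and with the mean level next below the 10, had 29.1 RPKM in LP roots and 1.77 RPKM in CK roots, 16.4-fold higher (7.89 to 41.2). It is a fragment of 283 bases with 7 reads in CK. The 3 genes with terms for a DNA-binding transcription factor and for boron deprivation share a protein hit. Of these, comp16770_c0 had 1.44 RPKM in LP roots and 8.62 RPKM in CK roots, comp19677_c0 had 4.65 RPKM in LP roots and 13.2 RPKM in CK roots, and comp22_c0 had 1.75 RPKM in LP roots and 3.51 RPKM in CK roots. All 3 were thus lower in LP, and the first 2 by more than 2-fold on the log2 scale used. Whether the 3 are pieces of fewer genes was not tested. A cytokinin receptor gene, comp15379_c0, had 2.13 RPKM in LP roots and 5.94 RPKM in CK roots, 2.79-fold lower (1.83 to 4.24) on 48 and 49 reads. The gene comp6004_c0, with the same auxin binding and SCF terms as comp14261_c0 and no product name, had 12.1 RPKM in LP roots and 15 RPKM in CK roots, 1.24-fold lower (1.13 to 1.36).

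The 4 genes that the product names left out, 3 PHS phosphate transporters and 1 ribonuclease T2, were all at least 2-fold higher in LP. They summed to 401.7 RPKM in LP roots and 26.35 RPKM in CK roots, with comp6435_c0 at 316 RPKM in LP roots and 1.83 RPKM in CK roots. Of all genes that averaged 1 RPKM or more, 8.68% were at least 2-fold higher. The PHS entries comp6435_c0, comp44357_c0 and comp19647_c0 are 450, 669 and 907 bases long, with 13, 40 and 1 reads in CK. Whether they are pieces of fewer genes was not tested.

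Genes that share a GO term or product name with the 10 were gathered after the values had been seen. Of 12 inorganic diphosphatase genes that averaged 1 RPKM or more, 3 lay above 2-fold, 1 lay below it and 8 between. The 3 include comp8706_c0 itself. Among all genes of that minimum level, 8.68% were at least 2-fold higher and 16.2% at least 2-fold lower. The median log2 ratio of the 12 was 0.38. The gene comp23299_c0, with no product name and no phosphate starvation term, had 792 RPKM in LP roots and 22.2 RPKM in CK roots, 35.6-fold higher (30.5 to 41.8). Next came comp23810_c0, named inorganic pyrophosphatase, with 383 RPKM in LP roots and 84.4 RPKM in CK roots, 4.54-fold higher (4.34 to 4.75). At the other end comp25558_c0, of the same product name, had 40.5 RPKM in LP roots and 107 RPKM in CK roots, 2.64-fold lower (2.43 to 2.86). The genes with this GO term thus lie on both sides, and the levels of comp8706_c0 and comp23299_c0 in CK are close to each other.

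The third gene with a phosphate transport term, comp26756_c0, had 8.82 RPKM in LP roots and 7.94 RPKM in CK roots, a ratio of 1.11 (0.984 to 1.26). Of 21 genes with an ER to Golgi transport term, 3 were at least 2-fold higher and 0 lower. Over all genes that averaged 1 RPKM or more, 8.68% were at least 2-fold higher and 16.2% at least 2-fold lower. These shares stand beside the other counts of this paragraph too. The 3 higher genes were comp19465_c0, from the set, and comp9269_c0 and comp15930_c0. The latter 2 had 84 and 119 reads in LP and 0 reads in CK. All 8 auxin binding genes stayed within 2-fold, with log2 ratios of -0.63 to 0.03, as did all 6 genes named F-box and WD-40 domain protein 7, with log2 ratios of -0.51 to 0.09. The 2 cytokinin receptor genes, comp26979_c0 and comp15379_c0, had log2 ratios of -0.31 and -1.15, so that 1 was at least 2-fold lower. Of 6 meristem maintenance genes 1 was at least 2-fold lower and 5 stayed within 2-fold. All 6 genes of galactose metabolism stayed within 2-fold, and comp26304_c0 had the highest log2 ratio among them.

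Other lists of nutrient and root terms give the setting. For the counts below, 8.68% of all genes that averaged 1 RPKM or more were at least 2-fold higher. By the same limit 16.2% were lower. Whether any list departs from these shares was not tested. Of the 3 genes with a phosphate homeostasis term, 1 was at least 2-fold higher and 2 stayed within 2-fold, with log2 ratios of -0.93 to 1.42. The highest, comp26503_c0, had 69.6 RPKM in LP roots and 25.3 RPKM in CK roots, 2.75-fold higher (2.55 to 2.97). The inositol-pentakisphosphate kinase comp26386_c0, which makes inositol hexakisphosphate, was 1.42-fold higher (1.3 to 1.55). The 1 galactolipid gene, digalactosyldiacylglycerol synthase comp21394_c0, whose product replaces phospholipid in membranes, was 1.53-fold higher (1.44 to 1.62). Of 62 root hair and lateral root genes that averaged 1 RPKM or more, 4 were at least 2-fold higher and 13 lower, with a median log2 ratio of -0.33, and comp14261_c0 belongs to them. At their ends were the ABC transporter comp25929_c0, with 33.2 RPKM in LP roots and 0 reads in CK roots, and the nitrate transporter comp26314_c0, with 1.85 RPKM in LP roots and 81.4 RPKM in CK roots. Another list took terms for sulfur, nitrogen or iron starvation or for response to starvation in general. Of its 5 genes that averaged 1 RPKM or more, 1 was at least 2-fold higher and 1 lower. The higher one, serine O-acetyltransferase comp21917_c0, had 7.66 RPKM in LP roots and 2.06 RPKM in CK roots. That is 3.72-fold higher (2.19 to 6.81), on 153 LP and 15 CK reads. The lower one, the unc51-like kinase comp42258_c0, had 2.06 RPKM in LP roots and 6.77 RPKM in CK roots, 3.29-fold lower (2.39 to 4.54).

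The genes nearest to the set's extremes by level in both libraries were found among 14767 annotated genes, by distance on the log2(RPKM + 1) scale over the 2 libraries. Nearest to comp25733_c0 were comp9129_c0, which carries only a class of energy production and conversion, at 286 RPKM in LP roots and 0.36 RPKM in CK roots (distance 0.42), the PHS transporter comp6435_c0 (0.69) and comp16482_c0, named aminocyclopropanecarboxylate oxidase (0.79). Nearest to comp22910_c0 were comp25954_c0, named a sugar transport permease (0.13), alpha-mannosidase comp23360_c0 (0.14) and glutathione S-transferase comp26091_c0 (0.15).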

How the data were processed

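The labels' protocols describe Trizol extraction of root RNA, poly(A) selection and paired-end Illumina sequencing; they also mention adipose tissue and poly(A)- RNA, which leaves the RNA fraction uncertain. Which assembler, aligner, counter and test the authors used is not given in the sources used here. The authors deposited 1 table with estimated counts (not normalized, not always whole), RPKM values, a log2 fold change, p-values and FDR rounded to 2 decimals, and gene and effective lengths in bases, per the file headers.

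The 10 genes and all lists were chosen with earlier results of these data known. Ratios were taken of RPKM; below 1 RPKM in either library, reads divided by the library total were used instead. The exact 95% Clopper-Pearson interval of the rounded reads was scaled to that ratio; levels have exact Poisson intervals. Counts of genes use a pseudocount of 1 RPKM, a minimum mean of 1 RPKM and a limit of 2-fold. Each group has 1 library, so nothing was tested. The code was tested on simulated data. Named genes are the 10, the 6 others of the text rule (4 of them by the fixed rule, comp15379_c0 and comp22_c0 in addition), genes from the ends of the fixed lists, the 3 nearest genes to each extreme, and relatives picked after their values were seen. Python 3.11.15, pandas 2.3.3, NumPy 2.4.6, SciPy 1.17.1 and matplotlib 3.10.9 were used.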

Additional observations from a re-analysis of the deposited data

How the results depend on the processing

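No paired analysis was possible because each group has 1 library. The count of 3 members higher in LP did not change under another pseudocount (0.1 RPKM), the median ratio or upper quartile as scale, or CPM (reads scaled to the library total). With the median ratio of all genes set to 1, the count of members lower in LP was 0, the median log2 ratio of the members 0.05 and the ratio of their summed levels 4.87. With CPM the median was -0.24. With all 16 genes of the text rule 4 were higher and 4 lower in LP, and with a limit of 1.5-fold 4 members were higher and 1 lower. The ratio of sums was 1.73 without the most abundant member in LP and 5.8 without that in CK. Over all genes, at least 10 reads in each library left 1157 higher and 2811 lower. The median scaling, added for all genes after the data were seen, gave 10.8% higher and 13.6% lower, so that 44.3% of the genes past 2-fold were higher, against 34.9%. Of 40 alternative values of single members, 28 lay inside the counting interval when its log2 width is set around the ratio with a pseudocount of 1 RPKM, 12 lay outside, and 0 changed sign in a gene past 2-fold. The CK value of comp25733_c0, on 19 reads, is the one that depth limits most.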
